A study of Mus musculus with 6 samples.

Results

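The DNA replication genes are 49 genes whose products license origins, build and run the replication fork, supply its nucleotides, start S phase and restore chromatin behind the fork. They were fixed by name, and each was represented by its RefSeq transcript with the highest base mean, the authors' mean normalized count over the libraries compared, among 25112 genes paired with a symbol. Of the 49 genes, 32 had an adjusted p-value per the authors' deposited table. A further 8 had a fold change without an adjusted p, and 9 had every transcript listed at 0.

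The libraries were made from primary epidermal keratinocytes of wild type C57BL/6 mouse pups aged 1 to 3 days, grown in medium with 0.05 mM calcium to 60% confluence. The 3 libraries of the miR-148a group were from cells transfected with pro-miR-148a, a small RNA that raises miR-148a, at 200 nM. The 3 libraries of the control group were from cells given miR-Control under the same protocol. The title of the third miR-148a library carries the number 1 of the first beside its own replicate number 3, so the labels leave unclear whether both come from 1 sample; it was taken as replicate 3. RNA was taken 48 h after transfection in all of them. The labels do not say whether the libraries came from separate cultures or animals, so the p-values measure the spread between these libraries, which may be technical. The files used here give 1 comparison over both groups and no value per library, so each error given is the SE, the standard error that the authors list beside a log2 fold change, and the depth of each library is unknown.

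Before a cell copies its genome, the origin recognition complex, Cdc6 and Cdt1 load the ring of Mcm2 to Mcm7 onto each origin. In S phase Cdc45 and the GINS complex turn that ring into the active helicase, and polymerases alpha, delta and epsilon copy the strands with the help of the sliding clamp PCNA and its loader RFC. Many of these genes are transcribed in a burst at the G1/S boundary, when E2F factors are released from Rb family proteins. In the epidermis replication takes place in basal keratinocytes and stops as cells leave the basal layer.

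The guide strand expected from pro-miR-148a is miR-148a-3p, and its RefSeq sequence (GRCm38.p6, chr6:51269829-51269850, minus strand) is printed because its seed was used to read the direction of the table. Capitals mark the seed, bases 2 to 8.
mmu-miR-148a-3p: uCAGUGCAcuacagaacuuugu
Whether the fold changes are over the control or over the miR-148a libraries is not stated. Target sites of a raised microRNA are expected to lie on transcripts that fall. Among genes with an adjusted p, the median log2 fold change as deposited was 0.10 for the 433 genes whose longest 3' untranslated region (UTR) holds an 8mer, TGCACTG followed by A, and -0.01 for the 6025 genes with no match to the seed. Genes whose best match was TGCACTG without that A (7mer-m8) had 0.05, GCACTGA (7mer-A1) 0.04 and GCACTG alone (6mer) -0.01. Median UTR lengths were 2378 bases for the 8mer, 2508 for the 7mer-m8, 1929 for the 6mer and 810 for no match. The part of length in these medians was not tested. From these medians, and as the title of the table words it, the deposited values are read as control over miR-148a. All signs here have been turned, so that positive means higher with miR-148a. Every direction rests on this reading and would turn with it.

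DNA replication genes were higher with miR-148a or did not pass the test, and none was lower. Of the 32 with an adjusted p, 17 rose at an adjusted p under 0.05 (DESeq2, the authors' deposited table), whereas 15 missed that threshold; none was lower at an unadjusted p under 0.05 either. Over all 11038 genes tested, 16.7% were higher and 16.8% lower. With a base mean of at least 100 the counts were 17 higher and none lower of 27, against 26.4% higher and 23.4% lower of 6423 genes. The median log2 fold change was 0.40 over the 32 genes, against -0.01 over all genes tested, and 0.42 against 0.03 at base means of at least 100. The rises were small: among the 17 genes the fold ran between 1.19 and 2.02, with a median of 1.42, and 6 of them reached 1.5-fold. The libraries hold RNA of whole cultures, so more cells in S phase and more of these transcripts per cell cannot be told apart.

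**Figure D1:**
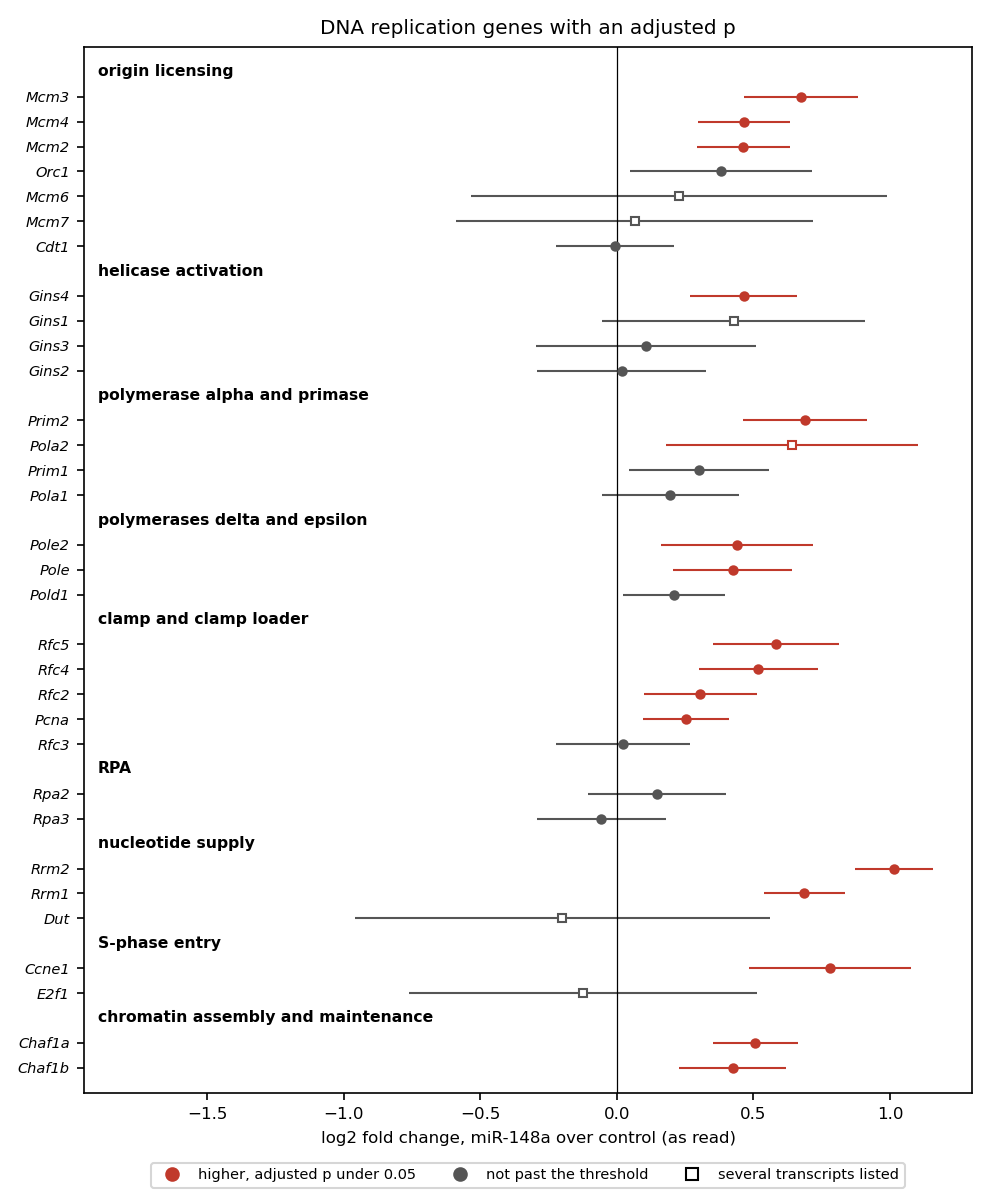
Log2 fold change of the 32 DNA replication genes with an adjusted p, miR-148a over control as read here, grouped by role; bars are 95% intervals from the authors' standard errors. Red points are the 17 genes that rose, all right of 0, and open squares are genes with several transcripts in the table, whose intervals are mostly wide.

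The nucleotide suppliers gave the highest value of the set. Rrm2, the small subunit of ribonucleotide reductase that rises in S phase, was 2.02-fold higher with miR-148a per the authors' deposited table (NM_009104, log2 fold change 1.01 ± 0.07 SE, adjusted p = 5.52e-43, base mean 8128). Its large subunit partner Rrm1 was 1.61-fold higher per the authors' deposited table (NM_009103, log2 fold change 0.69 ± 0.08 SE, adjusted p = 5.43e-18, base mean 8679). The 95% intervals, 0.87 to 1.16 for Rrm2 and 0.54 to 0.84 for Rrm1, did not overlap; the difference between the subunits was not tested, since the errors of 2 genes in the same libraries may be correlated. Dut, the enzyme that removes dUTP, had a base mean of only 7.89 per the authors' deposited table and an interval of -0.96 to 0.56. Thymidylate synthase, Tyms, was listed at 0 in both of its transcripts. Thymidine kinase, Tk1, had a base mean of 3.35 and no adjusted p per the authors' deposited table.

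Among the genes of origin licensing, the 3 helicase subunits that could be measured well all rose. They were the only ones of 7 tested licensing genes to rise, beside 16.7% of all genes tested. Per the authors' deposited table, Mcm3 was 1.60-fold higher with miR-148a (NM_008563, log2 fold change 0.68 ± 0.11 SE, adjusted p = 2.78e-09, base mean 3071). Mcm2 and Mcm4 lay close to each other per the authors' deposited table, at 1.38-fold each (0.46 ± 0.09 SE for both, adjusted p = 9.55e-07 and 6.36e-07). The remaining ring subunits could not be read: Mcm5 was listed at 0, and Mcm6 and Mcm7 had base means of 16.8 and 34.1 per the authors' deposited table, with intervals of -0.53 to 0.99 and -0.59 to 0.72. Mcm8, a relative of the ring subunits that acts in recombination, had a base mean of 0.774 and no adjusted p per the authors' deposited table.

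Neither of the tested factors that load the ring passed. Cdt1, the loader that is destroyed once S phase begins, had a log2 fold change of -0.01 ± 0.11 SE per the authors' deposited table at a base mean of 1350 (adjusted p = 0.975), and its interval of -0.22 to 0.21 lay below that of Mcm3 (0.47 to 0.88), a difference that was not tested. Orc1, the origin subunit that cycles with G1, had 0.38 ± 0.17 SE per the authors' deposited table, short of the threshold (adjusted p = 0.0736). Orc2 and Orc6 were listed at 0 in all of their transcripts, and the only transcript of Cdc6 above 0 was a non-coding one with a base mean of 0.658 per the authors' deposited table.

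In helicase activation 1 of 4 tested genes rose, beside 16.7% of all genes tested. At base means of at least 100 it was 1 of 3, near the 26.4% of all genes. All 4 GINS subunits work in equal number in 1 complex, and their log2 fold changes ran from 0.02 to 0.46. Gins4 was 1.38-fold higher with miR-148a per the authors' deposited table (log2 fold change 0.46 ± 0.10 SE, adjusted p = 2.18e-05, base mean 1109). Gins1 had 0.43 ± 0.25 SE, Gins3 0.11 ± 0.21 SE and Gins2 0.02 ± 0.16 SE per the authors' deposited table, none past the test (adjusted p = 0.191, 0.769 and 0.955). The intervals of Gins4 (0.27 to 0.66) and Gins2 (-0.29 to 0.33) overlapped in part, and the difference between subunits was not tested. Cdc45 was listed at 0, and Mcm10, which helps the helicase start, had a base mean of 0.139 with no adjusted p per the authors' deposited table.

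The polymerases were on the higher side, and 4 of 7 tested subunits passed. As the authors' deposited table lists, the regulatory primase subunit Prim2 was 1.61-fold higher (0.69 ± 0.12 SE on the log2 scale, adjusted p = 2.73e-08, base mean 761), while the catalytic primase subunit Prim1 had 0.30 ± 0.13 SE and missed the threshold (adjusted p = 0.0648). Pola2, the second subunit of polymerase alpha, was 1.56-fold higher per the authors' deposited table (0.64 ± 0.24 SE, adjusted p = 0.0232) at a base mean of 110.0. The catalytic subunit Pola1 had 0.19 ± 0.13 SE per the authors' deposited table (adjusted p = 0.271). Both tested subunits of polymerase epsilon, which extends the leading strand, rose: Pole by 0.42 ± 0.11 SE and Pole2 by 0.44 ± 0.14 SE on the log2 scale per the authors' deposited table (adjusted p = 0.00068 and 0.0078). Pold1, the catalytic subunit of polymerase delta on the lagging strand, had 0.21 ± 0.10 SE per the authors' deposited table (adjusted p = 0.0805). Pold3 was listed at 0, and Pold2 had a base mean of 0.851 per the authors' deposited table and lacked an adjusted p.

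Of the clamp and its loader 4 of 5 tested genes rose. By the authors' deposited table, Pcna was the most abundant of them per length, at a base mean of 3965 per kb of transcript, and had the lowest fold of the 17 that rose, 1.19 (log2 fold change 0.25 ± 0.08 SE, adjusted p = 0.00671). Reads of Pcna could be shared with its annotated pseudogenes Pcna-ps1 and Pcna-ps2. The small loader subunits Rfc5 (0.58 ± 0.12 SE), Rfc4 (0.52 ± 0.11 SE) and Rfc2 (0.30 ± 0.11 SE) rose per the authors' deposited table (adjusted p = 6.62e-06, 2.43e-05 and 0.0146). Rfc3, the remaining small subunit, had 0.02 ± 0.13 SE per the authors' deposited table at a base mean of 650 (adjusted p = 0.918), and its interval of -0.22 to 0.27 lay below those of Rfc4 (0.30 to 0.74) and Rfc5 (0.35 to 0.81). Rfc1, the large subunit, was listed at 0. The difference between loader subunits was not tested.

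The single-strand binding complex RPA, which also serves DNA repair outside S phase, did not pass in either subunit tested, nor at an unadjusted p under 0.05. Rpa2 had a log2 fold change of 0.15 ± 0.13 SE and Rpa3 of -0.06 ± 0.12 SE per the authors' deposited table (adjusted p = 0.445 and 0.787). Their intervals, -0.11 to 0.40 and -0.29 to 0.18, exclude rises of the size of Rrm1. Rpa1 was listed at 0. The nuclease Fen1 and the ligase Lig1, which finish Okazaki fragments, had base means of 2.05 and 2.28 and no adjusted p per the authors' deposited table.

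Cyclin E and the chromatin factors were also higher. Ccne1, the cyclin that drives Cdk2 into S phase, was 1.72-fold higher with miR-148a per the authors' deposited table (NM_007633, log2 fold change 0.78 ± 0.15 SE, adjusted p = 2.15e-06, base mean 618), the second highest value of the set. Its paralog Ccne2 had a base mean of 1.67 per the authors' deposited table and lacked an adjusted p. E2f1, the activator of the S phase programme, had 2 transcripts with base means of 61.2 and 9.13 per the authors' deposited table, and the interval of the first, -0.76 to 0.51, was too wide to place it. The subunits of the histone chaperone CAF-1, which deposits new histones behind the fork, rose to like extents: Chaf1a was 1.42-fold and Chaf1b 1.34-fold higher per the authors' deposited table (adjusted p = 2.72e-09 and 0.000124). Uhrf1, which recruits maintenance methylation to new DNA, was listed at 0 in all 4 of its transcripts.

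**Figure D2:**
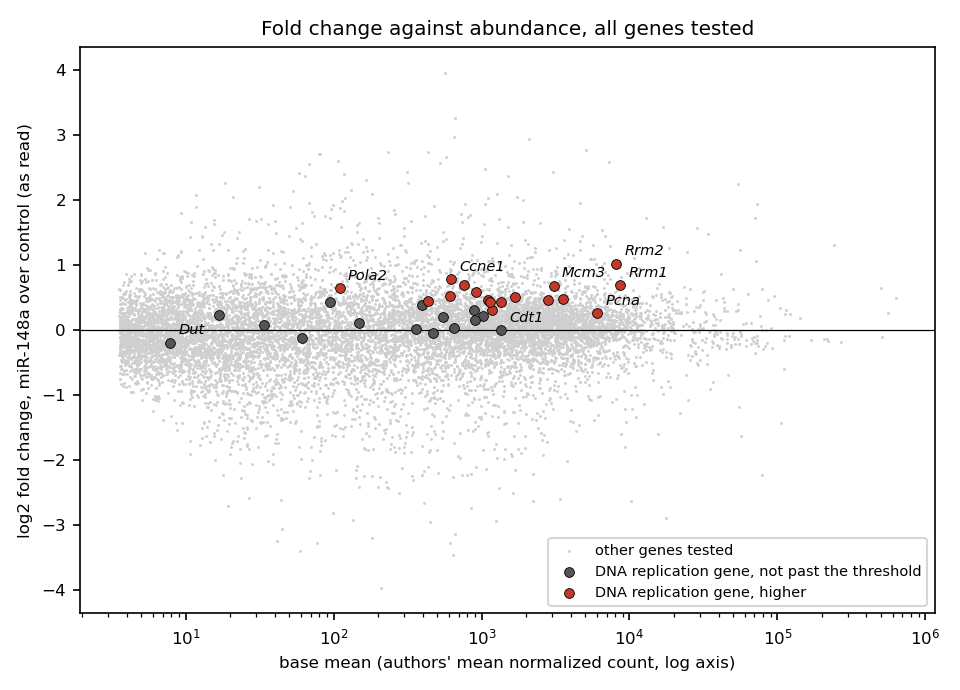
Base mean (log axis) against log2 fold change, miR-148a over control as read here, for all 11038 genes tested (grey) and the 32 DNA replication genes (red where they rose, dark grey where they did not pass). The genes that rose lie between base means of 110.0 and 8679 and within 1.01 of 0, well inside the cloud of all genes.

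Which genes could be read depended on how many transcripts they have in the table. All 26 DNA replication genes with 1 transcript had an adjusted p, with base means between 149.7 and 8679. Of them 16 rose, against 19.7% of all tested genes with 1 transcript. Of the 23 with several transcripts, 6 had an adjusted p, their base means reached at most 110.0, and Pola2 alone rose. The same holds across the table: 50.5% of genes with 1 transcript and 30.6% of those with several had an adjusted p, with median base means of 553 and 23.6. Of the transcripts of genes with several, 73.9% were listed at 0, against 34.5% for genes with 1. Mcm5, Cdc45 and Tyms were at 0 in every listed transcript. No listed transcript of Mcm6, Mcm7, Cdc6, Fen1, Lig1 or Tk1 exceeded a base mean of 34.1. These low values cannot be taken as the levels of these genes. The sources used here do not give the handling of reads that fit several transcripts.

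**Figure D3:**
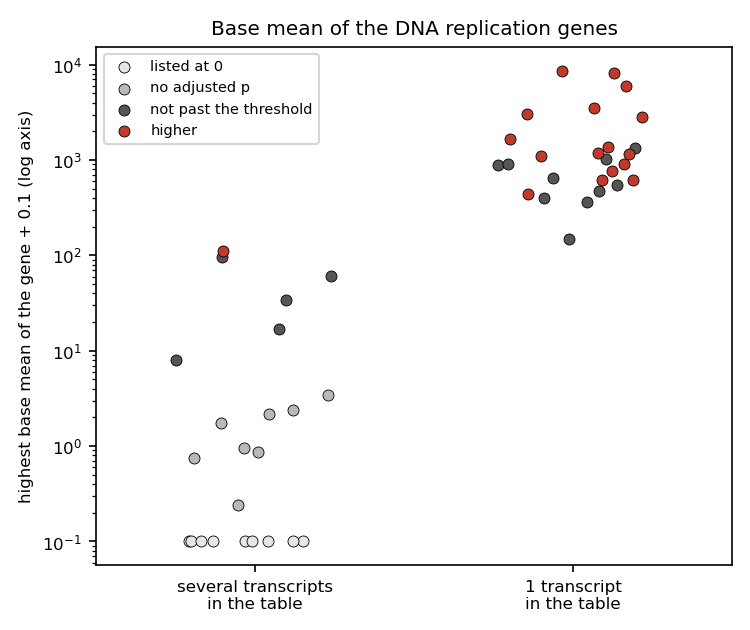
Highest base mean of each of the 49 DNA replication genes, plus 0.1, on a log axis, for the 23 genes with several transcripts in the table and the 26 with 1. No gene with several transcripts exceeded 110.0, and no gene with 1 was below 149.7.

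Compared per kb of transcript, the measured genes spanned a wide range. Pcna (3965), Rrm2 (3707) and Rrm1 (2171) had the highest base means per kb, from the values of the authors' deposited table, followed by Mcm3 (1013), Mcm4 (985), Mcm2 (834) and Gins4 (822). Gins2 (92.7) and Gins3 (59.4) were the lowest of the genes with 1 transcript. Both were also among those that did not pass.

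Genes that work beside these were read from 7 further lists of 111 genes, of which 82 had an adjusted p, 26 rose and 5 fell per the authors' deposited table (31.7% higher, median log2 fold change 0.22). At base means of at least 100 the counts were 26 higher and 5 lower of 62, beside the 26.4% and 23.4% of all genes given above. Fork factors came nearest to the members, with 8 of 14 higher and 1 lower. Per the authors' deposited table, Chtf18, a subunit of an alternative clamp loader, rose 2.07-fold (log2 fold change 1.05 ± 0.12 SE, adjusted p = 7.43e-16) and Pclaf, a PCNA partner, 1.66-fold (adjusted p = 4.5e-11). Pold4, the small accessory subunit of polymerase delta, fell 1.51-fold per the authors' deposited table (-0.59 ± 0.15 SE, adjusted p = 0.000377), against 0.21 for Pold1. The smallest rise there was that of Supt16, a histone chaperone, at 1.13-fold per the authors' deposited table (adjusted p = 0.02).

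Other licensing and firing factors held 3 that rose and none that fell among 10. At base means of at least 100, 33.3% of this list rose, beside 26.4% of all genes. They were Ticrr, which brings Cdc45 to origins (1.52-fold), Gmnn, the inhibitor of Cdt1 (1.41-fold), and Topbp1, a firing and checkpoint scaffold (1.18-fold), per the authors' deposited table. Of 12 other nucleotide synthesis genes 4 rose and 1 fell. With a base mean of at least 100 the counts were 4 and 1 of 7, where 26.4% of all genes rose and 23.4% fell. The folate enzyme Mthfd1 (1.32-fold) and the kinases Nme1 (1.27-fold) and Dck (1.21-fold) rose per the authors' deposited table.

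G1/S regulators had 4 that rose and none that fell among 12. With a base mean of at least 100, 4 of 8 rose, beside 26.4% of all genes. As the authors' deposited table lists, these were the S phase cyclin Ccna2 (1.77-fold), the G1 cyclin Ccnd1 (1.76-fold, base mean 8832), the phosphatase Cdc25a (1.44-fold) and the Cdk subunit Cks1b (1.22-fold, adjusted p = 0.0471). In the list of inhibitors 3 of 11 fell and 2 rose. At base means of at least 100, 3 of 8 fell and 2 rose, beside 23.4% and 26.4% of all genes. Rb1, the pocket protein that holds E2F in check, fell 1.47-fold per the authors' deposited table (-0.56 ± 0.10 SE, adjusted p = 2.12e-07). Cdkn2b and Cdkn1b, inhibitors of G1 kinases, fell 1.46-fold each per the authors' deposited table (adjusted p = 3.83e-06 and 4.55e-15). E2f5, an E2F that acts with pocket proteins, rose 1.63-fold and Cdkn2d 1.38-fold per the authors' deposited table (adjusted p = 1.08e-09 and 0.0464). Whether the inhibitors bear on the replication genes was not tested.

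Of 9 replication-coupled chromatin factors 2 rose, Asf1b (1.79-fold) and Rbbp7 (1.39-fold), and of 14 checkpoint and fork repair genes 3 rose, among them Atm (1.41-fold) and Brca1 (1.39-fold), per the authors' deposited table. None of either list fell, and at base means of at least 100 the shares that rose, 2 of 8 and 3 of 10, lay near the 26.4% of all genes. All 12 tested genes of a mitosis list rose, with a median log2 fold change of 0.86 per the authors' deposited table. That median is above the 0.42 of the DNA replication genes at base means of at least 100; the difference was not tested. In the authors' deposited GO table the category of the G1/S transition held 4 changed genes of 26 (adjusted p of over-representation = 1). The replication checkpoint category held 0 of 2, and the category of transcription control in that transition 0 of 5. The sources used here give neither the rule for a changed gene in these counts nor its direction. The counts can therefore not be set against the calls above.

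**Figure D4:**
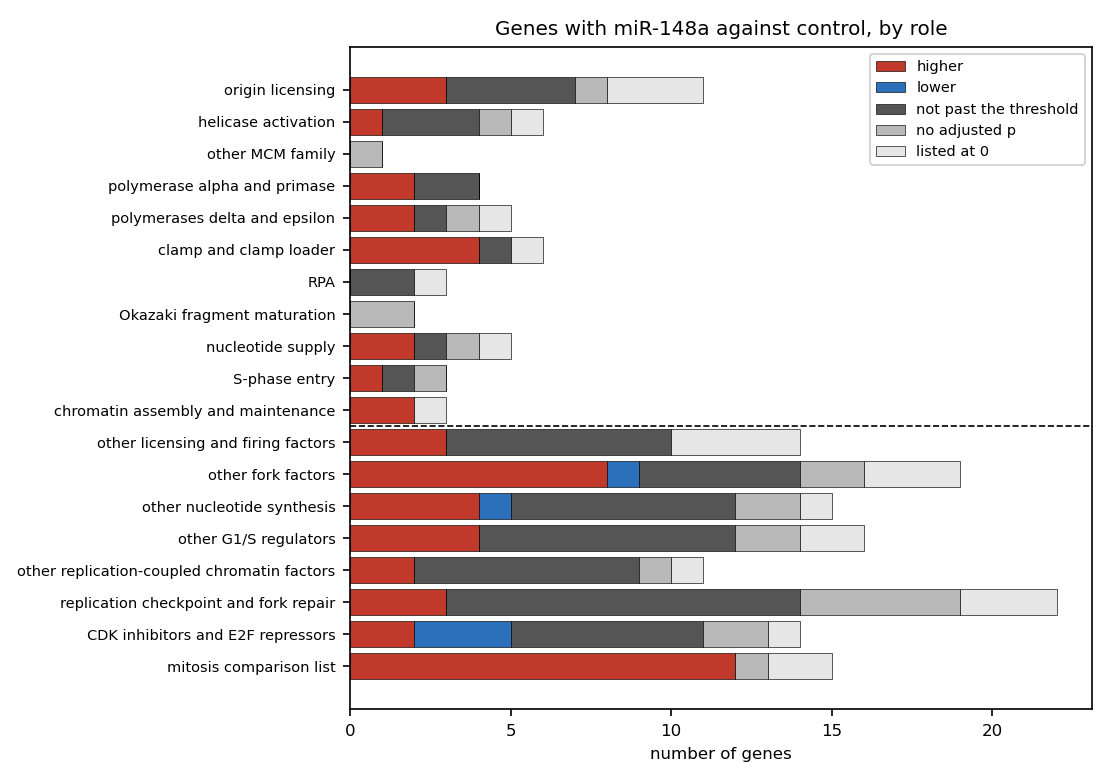
Number of genes by outcome with miR-148a against control, as read here, for the 11 roles of the 49 DNA replication genes (above the dashed line) and for 8 further lists. Lower calls, in blue, occur only in the fork, nucleotide synthesis and inhibitor lists, 5 in all, and RPA has no call.

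Markers of keratinocytes and of other cell types were read as well, and some passed the test in each direction. Of these markers the basal keratinocyte gene Krt5 had the highest base mean, 630448 per the authors' deposited table, and Krt15 had 2473. The other basal markers were low: Krt14 (40.3), Col17a1 (32.0), Itga6 (6.50) and Itgb4 (4.22), with Trp63 listed at 0 in all 8 transcripts. Each of these low genes has several transcripts listed. Fibroblast markers reached a base mean of 11119, that of Col1a1. By the authors' deposited table, all 6 suprabasal keratinocyte markers were lower with miR-148a (median log2 fold change -0.94), 2 of 6 basal markers rose, and 5 of 9 fibroblast markers fell and 1 rose (median -0.40). Of 4 tested melanocyte markers 1 fell (median -0.24), with Pmel and Dct at base means of 8101 and 6493, and of 3 immune markers 2 fell and 1 rose, with Ptprc, Cd74 and Cd207 listed at 0. Of 2 tested endothelial markers 1 rose and 1 fell. Beside these counts, 16.7% of all genes tested were higher and 16.8% lower. At base means of at least 100 the shares were 26.4% and 23.4%. Lists with 2 to 4 tested markers are too short to set against these shares. The part of these cell types in the replication values was not tested.

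Seed matches of miR-148a were counted in the longest 3' UTR of each gene (GENCODE M21). An 8mer or a 7mer-m8 (TGCACTG) was found in 1 of the 32 tested DNA replication genes, 3.12%, against 15.8% of 9882 genes tested. With the 7mer-A1 included the counts were 5 of 32, 15.6%, against 22.7%, and with 6mers 10 of 32, 31.2%, against 39% of genes tested. Over all 49 genes, tested or not, 20 held a match of some class (40.8%). The UTRs differed in length as well, with a median of 481 bases in the tested DNA replication genes and 1265 in all genes tested; the part of length in these shares was not tested. None of the 17 genes that rose held an 8mer or a 7mer-m8. The matches nearest to the results are shown with 30 bases each, capitals marking the match: Dut, the only tested gene with a 7mer-m8, Uhrf1, the only one with an 8mer, and Rfc2 and Rfc5, which rose and hold GCACTGA, a 7mer-A1.
Dut: gcctgtaagtcTGCACTGtgagcatggcat
Uhrf1: ttttcagagagTGCACTGActgggtgtcat
Rfc2: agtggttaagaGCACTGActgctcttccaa
Rfc5: cagtgatgtcaGCACTGActccacacgact
The match of Dut begins at base 150 of a UTR of 1195 bases (chromosome 2), that of Uhrf1 at 613 of 984 (chromosome 17), that of Rfc2 at 3386 of 3846 and that of Rfc5 at 1569 of 1707 (both chromosome 5). Mcm8 holds the same 30 bases as Rfc2 except for the last, so that stretch is not particular to Rfc2. These UTRs describe the annotation, and a match shows no binding.

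Promoters of the set share letters of the E2F motif. RefSeq promoters (GRCm38.p6, 250 bases before to 50 after the start) were found for 41 of the 49 genes and searched on both strands for 4 forms of the E2F letters, the first TTCCCGC, the second TTCGCGC, the third TTGCCGC and the last TTGGCGC, counting each gene once over its starts. A match lay in 26 of 41, 63.4%, against 18.5% of 8546 genes tested and 10.9% of all 27025 genes with a promoter. It was found in 7 of the 12 genes that rose and 11 of the 13 that did not pass. Dut and E2f1, without a match, list 2 transcripts each but have a single window here, which may not be that of their main start. On the opposite strand CCAAT reads ATTGG, which can share letters with the last form. CCAAT, the letters of NF-Y, lay in 25 of 41 (61.0%, against 41.0% of genes tested). TTTGAA, or its variant TTTAAA, forms of the cell cycle element CHR, lay in 11 of 41, 26.8%. That share stands beside 22% of genes tested and 30.6% of all genes with a promoter. CHR letters were found in 3 of the 12 genes that rose, 1 of the 13 that did not pass and 7 of the 16 without a test. Both Rrm genes, Chaf1a and Pola1 are printed. The first 3 are examples of genes that rose and hold E2F letters upstream, and Pola1 holds 3 matches upstream without passing. Ccne1, Mcm2, Pcna, Pola2 and Rfc5 rose as well, hold no E2F letters in their windows and are not printed. Each printed stretch is the 250 bases before the start, with E2F letters in capitals. They lie at chr12:24708004-24708253 (plus strand) for Rrm2, chr7:102441445-102441694 (plus) for Rrm1, chr17:56040166-56040415 (plus) for Chaf1a and chrX:93632156-93632405 (minus) for Pola1.
Rrm2: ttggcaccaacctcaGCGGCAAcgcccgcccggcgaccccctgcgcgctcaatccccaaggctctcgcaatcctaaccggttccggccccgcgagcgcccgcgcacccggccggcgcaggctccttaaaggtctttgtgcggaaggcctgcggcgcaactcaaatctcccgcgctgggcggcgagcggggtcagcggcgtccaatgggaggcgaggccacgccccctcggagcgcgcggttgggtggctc
Rrm1: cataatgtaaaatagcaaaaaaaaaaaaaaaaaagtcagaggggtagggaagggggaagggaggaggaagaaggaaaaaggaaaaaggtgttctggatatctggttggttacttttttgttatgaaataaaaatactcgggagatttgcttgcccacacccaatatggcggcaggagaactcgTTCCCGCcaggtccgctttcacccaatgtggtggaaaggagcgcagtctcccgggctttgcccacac
Chaf1a: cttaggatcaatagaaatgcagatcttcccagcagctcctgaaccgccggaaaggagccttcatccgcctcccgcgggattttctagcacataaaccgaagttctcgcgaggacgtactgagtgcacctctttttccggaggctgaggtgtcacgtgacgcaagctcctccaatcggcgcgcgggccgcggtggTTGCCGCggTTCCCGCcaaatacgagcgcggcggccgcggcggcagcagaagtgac
Pola1: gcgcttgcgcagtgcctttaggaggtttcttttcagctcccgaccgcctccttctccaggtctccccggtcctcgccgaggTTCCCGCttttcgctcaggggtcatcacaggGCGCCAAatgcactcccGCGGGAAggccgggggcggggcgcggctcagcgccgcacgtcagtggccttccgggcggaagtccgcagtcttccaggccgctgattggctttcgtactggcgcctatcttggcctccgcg
Relative to the start, the E2F letters of Chaf1a began at -56 and -47, those of Rrm1 at -67 and those of Rrm2 at -235.

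**Figure D5:**
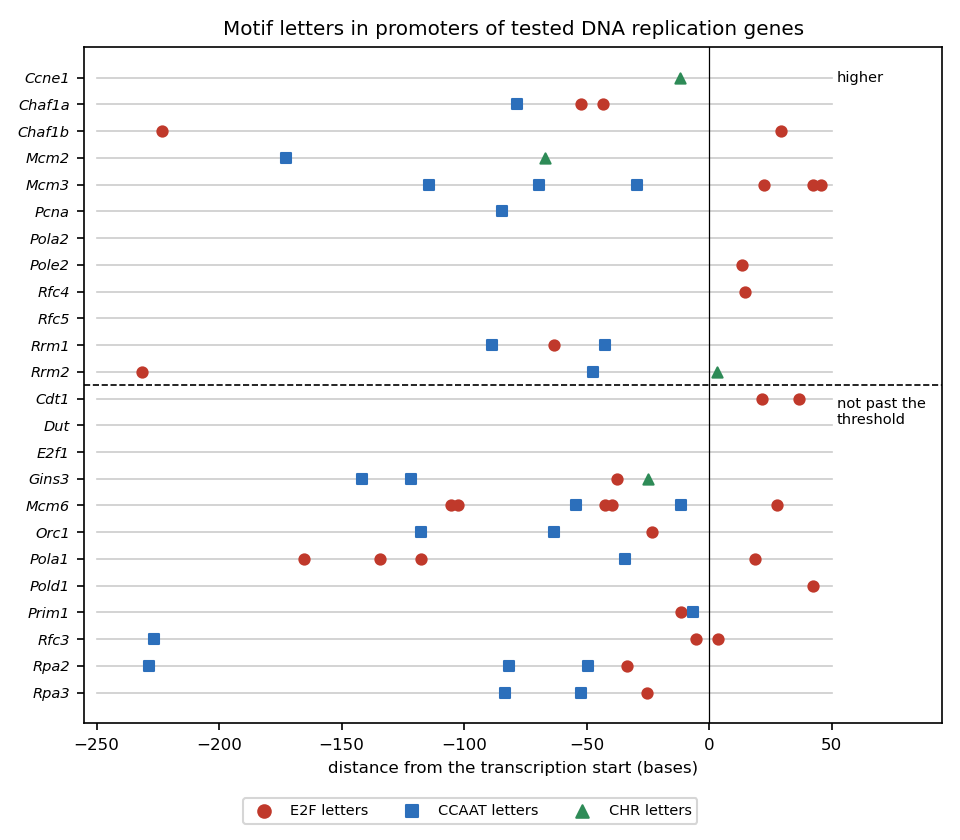
Positions of E2F, CCAAT and CHR letters relative to the transcription start in tested DNA replication genes with 1 promoter in the RefSeq table, 12 that rose above the dashed line and 12 that did not pass below it. Matches of the E2F letters occur on both sides of the line. The windows of Pola2, Rfc5, Dut and E2f1 hold none of the 3 motifs, and letters at any other start of these genes would be missed.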

How the data were processed

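Total RNA of keratinocytes was sequenced in 6 libraries, 3 per group, and groups were taken from the titles of the samples. The submitters' processing notes name DESeq2 and mm9 without version or role, and the sources used here give no aligner or counter. The deposited expression table lists 42885 RefSeq transcripts, and per the file headers the authors gave each a base mean (mean normalized count, a signal), a log2 fold change, its standard error, the Wald score of their ratio and p-values before and after adjustment. The authors' GO table gives, per the file headers, the number (count) of changed genes per category and p-values.

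No value per library was available to a test, so the authors' adjusted p, at 0.05, stands for each call; 11757 transcripts have one, all with a base mean of at least 3.56. Transcripts were paired with symbols by accession (42739 matched, GRCm38.p6). Intervals are the log2 fold change ± 1.96 SE, and folds are 2 to that power. Coordinates belong to printed RefSeq sequences only. UTRs are the longest of each gene with at least 20 bases. Members, lists and the rule for naming genes (every member; of each further list the 2 highest and 2 lowest that passed; all inhibitors that passed) were chosen with earlier results of these data known. Some genes that the rule selects are not reported here. The recentred Wald test was run on simulated data with few changed transcripts, changes of the same size and independent errors. That setting differs from these data, where many genes passed, so it does not show how the recentring acts here. Alternatives were a stricter threshold, other filters, centrings and transcript choices. Of the 32 tested members 7 overlap another gene with a base mean above 0 (3 that rose: Pole2, Rfc4 and Chaf1a); the sources used here do not state whether counting used strand. Python 3.11.15 with pandas 2.3.3 and scipy 1.17.1 was used.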

Additional observations from a re-analysis of the deposited data

How the results depend on the processing

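Without values per library no replicate could be left out and no count test refitted. No paired analysis was possible because the table carries no column per library. The count of DNA replication genes that rose stayed between 15 and 17, and none was called lower, at an adjusted p under 0.01, with a base mean of at least 100, with no filter, under both recentrings and both other transcript choices, and over genes with 1 transcript (16 of 26, chosen after seeing the data). Of all tested genes with 1 transcript, 19.7% were higher. Some of these settings could hardly move the count. Every gene that rose has a base mean of at least 110.0, so the filter at 100 removed none of the 17. Among tested members only Pola2 and E2f1 have more than 1 transcript with an adjusted p. Keeping genes with 1 transcript could take only Pola2 from the genes that rose. At an adjusted p under 0.01 Pola2 and Rfc2 no longer passed. Asking for 1.5-fold left 6 genes that rose, and 8 higher and 2 lower among the further lists. That rule counts fewer genes by construction. Over all 11038 genes tested it called 644 higher (5.83%) and 994 lower. Without a filter, 8 weakly counted genes joined and the median of the set moved to 0.27, against 0.40, by their addition. No SE in the table exceeded 0.393, and Mcm10, at a base mean of 0.139, had 0.146, below the 0.246 of Gins1 at 95.3. The sources used here do not say whether fold changes were drawn towards 0. Small folds of weakly counted genes may thus not be measurements of no change, and their intervals may be too narrow. Recentring on abundant transcripts brought the median to 0.36 and the share of all calls that were higher to 42.5%, against 49.8%. Among members with an adjusted p, the low base means of those with several transcripts go with wide intervals (-0.53 to 0.99 for Mcm6). The part of depth was not tested, since the depth per library is unknown.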
